A study of Bos taurus with 28 samples.

Results

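Liver of ovariectomized cows exposed to any ovarian steroid for 14 days was compared with liver of ovariectomized cows that received none. The exposed side held 21 of the 28 arrays of the series and pooled every array of 3 treatments, with 7 arrays from each. E2T cows carried an ear implant that released estradiol, P4T cows carried an intravaginal device that released progesterone, and E2P4T cows carried both. The other 7 arrays (CO) came from cows without hormone. The submitters' source label calls the progesterone exposure intradermal, but their treatment protocol and the methods of the study place the device in the vagina. All cows were adult Holsteins that were not lactating and had lost their ovaries, so CO was liver with little ovarian steroid and not liver of an intact cow. Every biopsy gave polyadenylated RNA that was labelled with biotin and hybridized to the Affymetrix Bovine GeneChip, on which a probe set is a group of short probes for 1 transcript. The cows rotated through the treatments in a replicated Latin square, so arrays of different groups may come from the same cow, and neither the cow nor the period of an array is in the labels. P-values therefore measure the spread between arrays, whose small number bounds what could be resolved.

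Estradiol and progesterone enter cells and bind nuclear receptors that act as transcription factors, and both also bind receptors at membranes. The liver expresses estrogen receptor alpha, inactivates both steroids by hydroxylation, sulfation and glucuronidation, and is the main source of plasma proteins and of circulating insulin-like growth factor 1. Pooling the 3 treatments asks which transcripts differed from untreated liver when an ovarian steroid was present, whichever steroid it was. Because each treatment was set against the same 7 CO arrays, an unusual CO array moves all 3 differences together.

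One exposed array did not look like liver. On E2P4T number 5 the 21 hepatocyte markers, genes of secreted and metabolic liver proteins, had a mean log2 signal of 10.08, against 14.87 to 15.41 on the 26 arrays other than this one and P4T number 4, and 19 of the 21 lay below the range of those arrays. APOB, a lipoprotein backbone made by hepatocytes, had a log2 signal of 5.00 there and 14.93 to 16.11 on the 26 arrays. Kidney markers went the other way, with 10 of 11 above the range of the 26 arrays. CDH16, a cadherin of kidney tubules, had a log2 signal of 14.42 against at most 8.75, and CUBN, the kidney receptor for filtered proteins, had 12.48 against at most 7.45. P4T number 4 carried liver transcripts, with a hepatocyte mean of 15.06, but its hybridisation control RNAs, foreign RNAs added in a fixed amount before hybridisation, had a mean log2 signal of 17.31. Those of E2P4T number 5 had 18.27, against 12.95 to 16.26 elsewhere. Results are therefore given for all 28 arrays and for the 26 arrays without these 2.

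Without these arrays the arms also differed as whole arrays. On 26 arrays the control RNAs averaged 14.56 ± 0.76 (SD, n = 7) in CO and 13.87 ± 0.59 (SD, n = 19) with steroid (exact permutation test over all 657800 splits, two-sided p = 0.021; adjusted p = 0.021 over 2 array measures). The median log2 signal of an array was 7.92 ± 0.30 (SD, n = 7) in CO and 7.65 ± 0.18 (SD, n = 19) with steroid (exact permutation p = 0.0093; adjusted p = 0.019). Exposed arrays were thus lower on both measures among the 26. P4T number 4 and E2P4T number 5 are both exposed and were set apart partly for their high control RNA signals. These p-values depend on that choice and do not show a difference between the arms of the whole series. With all 28 arrays the exact permutation p was 0.59 for the control RNAs and 0.40 for the median, since P4T number 4 and E2P4T number 5 had the highest values of each.

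**Figure D1:**
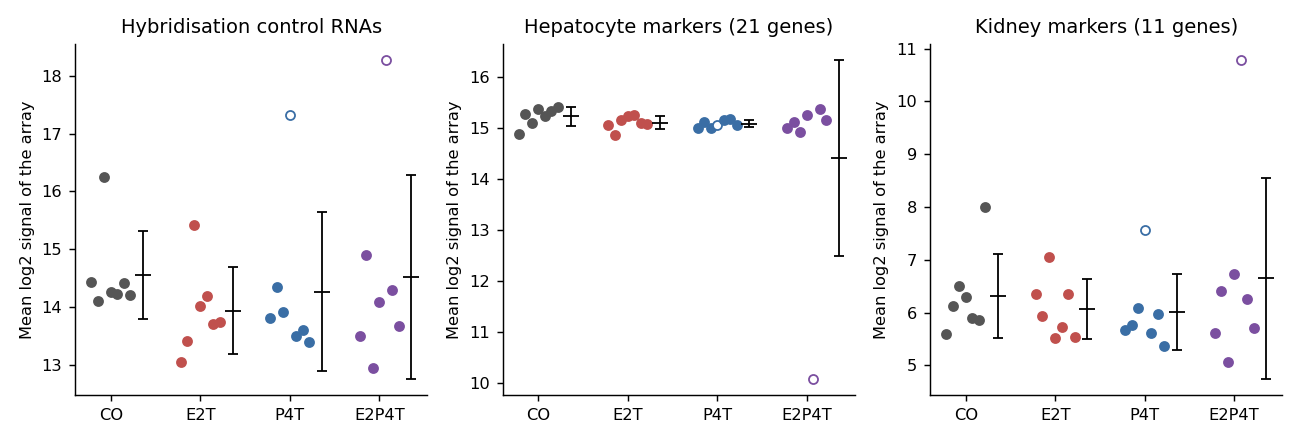
Mean log2 signal of the hybridisation control RNAs, of 21 hepatocyte markers and of 11 kidney markers on each of the 28 arrays, by group; bars are means ± SD over the 7 arrays of a group and open circles are P4T number 4 and E2P4T number 5. The open circle of E2P4T number 5 is at 10.08 for hepatocyte and 10.79 for kidney markers, and both open circles have the highest control RNA signals, 17.31 and 18.27.

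Across the 24016 probe sets that are not controls, none passed an adjusted p under 0.05 in limma with all 28 arrays (0%), and the smallest adjusted p was 0.797 (Benjamini-Hochberg). At an unadjusted p under 0.05, 487 probe sets were higher with steroid (2.03%) and 993 were lower (4.13%). On 26 arrays the smallest adjusted p was 0.147, so that again none passed (0%), and 1119 were higher (4.66%) and 2688 lower (11.2%) at an unadjusted p under 0.05. No probe set had all 21 exposed arrays above or all below the 7 CO arrays (0%), and none had with the 19 exposed arrays of the smaller set. With 1 probe set for each of 9155 gene symbols, the one of highest mean signal, 210 genes were higher (2.29%) and 327 lower (3.57%) on 28 arrays, and 613 were higher (6.7%) and 971 lower (10.6%) on 26 arrays. The median log2 difference over these genes was -0.06 on 28 arrays and -0.08 on 26 arrays. Below, a gene is called higher or lower with steroid only where its unadjusted p was under 0.05, and a gene without that call is given by its difference. Differences are exposed minus CO on the log2 scale, with the SE from limma.

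Most of the excess of lower genes lay in weak signals. Among the 6004 probe sets of lowest mean signal, the median log2 difference was -0.65 on 26 arrays, with 15 probe sets higher and 943 lower. Among the 6004 of highest mean signal the median was 0.06, with 747 higher and 378 lower. Quantile normalization, which gives every array the same distribution of signals, brought the median of the weakest 6004 to -0.17, with 127 higher and 341 lower, and gave 1694 higher and 1271 lower over all probe sets on 26 arrays. Lower probe sets made up 70.6% of those at an unadjusted p under 0.05 on 26 arrays as deposited, 42.9% after quantile normalization and 19.5% after centring each array on its median. On 28 arrays these shares were 67.1%, 43.0% and 43.4%. Centring moved the median difference over all probe sets from -0.16 to 0.10 on 26 arrays, and from -0.10 to 0.05 on 28 arrays. The balance of higher and lower transcripts thus depended on the scaling, and the acute phase, oxidative phosphorylation, ribosome, receptor and growth hormone groups below carry their counts after quantile normalization.

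**Figure D2:**
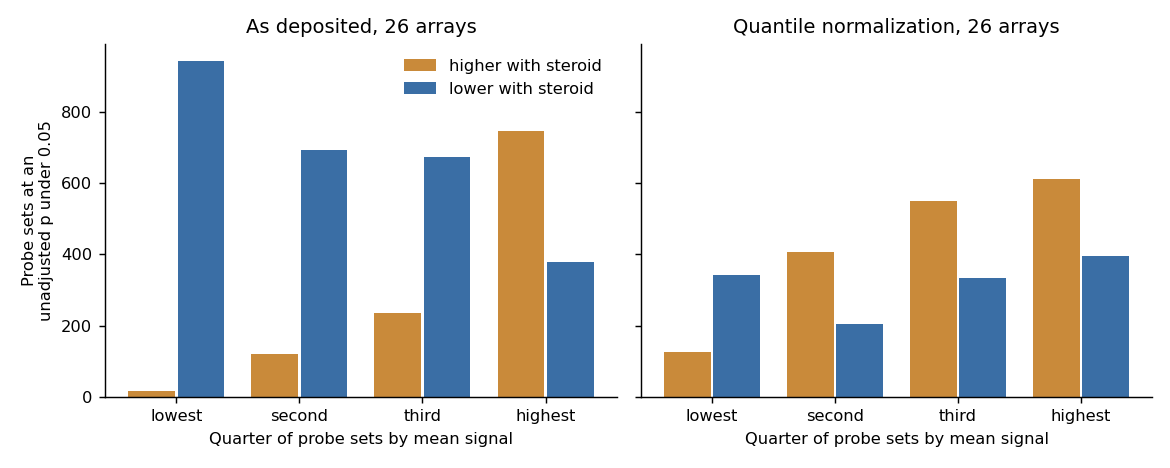
Number of probe sets higher and lower with any steroid at an unadjusted p under 0.05 on 26 arrays, in 4 bins of 6004 probe sets ordered by mean signal, as deposited (left) and after quantile normalization (right). As deposited, 943 of the weakest bin were lower and 15 higher, and after quantile normalization 341 were lower and 127 higher.

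Acute phase genes tended to be lower in exposed liver. They encode plasma proteins that hepatocytes secrete in larger amounts during inflammation. Of 13 measured, 5 were lower and 0 higher on 28 arrays, with a median log2 difference of -0.77, beside 3.57% of all genes lower. On 26 arrays 8 were lower and 0 higher, with a median of -0.49, beside 10.6% lower. After quantile normalization 3 were lower on 28 arrays, beside 2.67% of all genes, and 7 on 26 arrays, beside 601 of all 9155 genes. After median centring 1 and 2 were lower, where 1.67% and 2.36% of all genes were lower. HP, haptoglobin, which binds free hemoglobin and is a main acute phase protein of cattle, had log2 signals in CO of 8.71, 10.52, 12.92, 13.91, 14.40, 16.65 and 16.79. In exposed liver its signals ran from 7.69 to 16.66 with a median of 10.40, and 2 of the 21 exposed arrays lay above the CO mean, P4T number 2 at 16.66 and E2P4T number 2 at 16.61. The arms thus overlapped over most of their range, with the lowest CO array below the exposed median. HP was lower with steroid, at -2.71 ± 0.98 (SE; 6.53-fold) on 28 arrays and -2.62 ± 1.00 on 26 arrays.

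LBP, which presents bacterial lipopolysaccharide to immune cells, had CO signals of 11.58 to 14.80 (median 14.04) and exposed signals of 9.31 to 14.71 (median 12.44). It was lower, at -1.10 ± 0.42 on 28 arrays and -0.87 ± 0.33 on 26 arrays. SAA3, a serum amyloid A, ran from 9.76 to 12.27 (median 11.35) in CO and from 5.89 to 11.46 (median 10.72) with steroid, and was lower, at -0.96 ± 0.44 and -0.76 ± 0.28. Both had their lowest signal on E2P4T number 5, whereas only 1 exposed array lay above the CO mean of SAA3. ITIH3, a heavy chain of the inter-alpha-trypsin inhibitors that stabilise hyaluronan, had CO signals of 15.31 to 16.63 (median 15.71), and 16 of the 21 exposed arrays lay below the lowest of them. The exposed median was 15.05 and the difference -0.77 ± 0.37 on 28 arrays and -0.65 ± 0.17 on 26 arrays. Against CO on all 28 arrays, HP stood at -2.82 in E2T, -2.30 in P4T and -3.00 in E2P4T, LBP at -0.87, -0.95 and -1.47, and ITIH3 at -0.70, -0.40 and -1.20. The E2P4T means include number 5, at 9.31 for LBP (next 12.27) and 11.16 for ITIH3 (next 14.71). The P4T mean of ITIH3 includes number 4, at 16.71 (next 15.49). The LBP and ITIH3 values therefore do not rank the treatments.

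Other members on 26 arrays included both complement and clotting proteins. C4BPA, which slows the complement cascade, was lower at -0.52 ± 0.17, ITIH4 at -0.48 ± 0.17 and FGG, the gamma chain of fibrinogen, at -0.36 ± 0.15, whereas FGB, its beta chain, had 0.23 ± 0.20. SAA4 was lower on 28 arrays at -0.86 ± 0.41 and was not called on 26 arrays, at -0.75 ± 0.38. Calls for single acute phase genes depended on single CO arrays. On 28 arrays the list held 2 lower genes without CO number 1, number 2, number 4 or number 5, and 7 without E2P4T number 5. HP was no longer called on 26 arrays without CO number 1 (-2.05) or CO number 7, nor LBP without CO number 1 (-0.68). ITIH3 was called in 9 of 28 fits that left out 1 array from the 28, and in all 26 fits that did so from the 26. With the control RNAs as a covariate, 10 of the 13 genes were lower on 28 arrays, with a median of -0.96. On 26 arrays 4 were, with a median of -0.29, and LBP (-1.06) was called and HP (-2.08) was not.

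**Figure D3:**
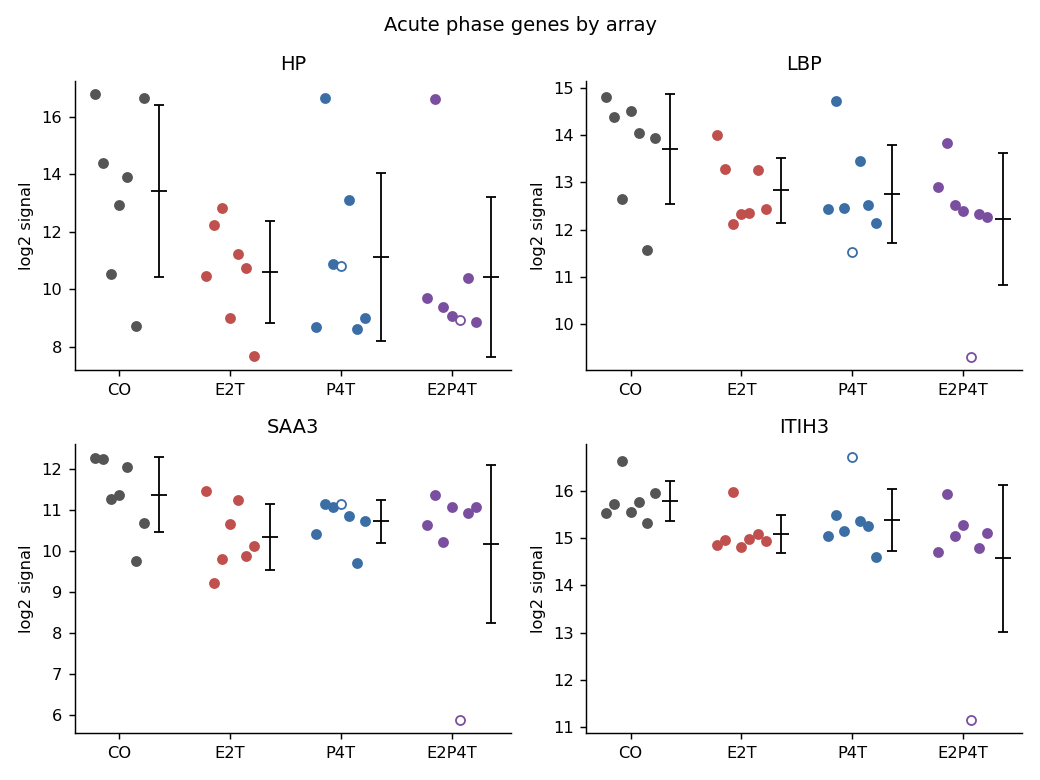
Log2 signals of the acute phase genes HP, LBP, SAA3 and ITIH3 on each of the 28 arrays, by group; bars are means ± SD over the 7 arrays of a group and open circles are P4T number 4 and E2P4T number 5. Of the 21 exposed arrays, 16 have less ITIH3 than the lowest CO array at 15.31, whereas HP spans 8.71 to 16.79 in CO and overlaps the exposed arrays.

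Genes of oxidative phosphorylation tended to be higher in exposed liver. These encode the mitochondrial complexes that pass electrons to oxygen and the synthase that uses the resulting proton gradient to make ATP. Over 77 nuclear genes of complexes I to IV and the ATP synthase, 11 were higher and 0 lower on 28 arrays, a share of 14.3% beside 2.29% of all genes, and 23 were higher and 2 lower on 26 arrays, 29.9% beside 6.7%. Their median log2 difference was 0.17 on 28 arrays and 0.23 on 26 arrays, and 62 of the 77 were positive on 26 arrays. After quantile normalization 9 were higher and 0 lower on 28 arrays, beside 2.82% of all genes higher. On 26 arrays 22 were higher and 2 lower, with a median of 0.19, beside 714 of all 9155 genes higher. After median centring on 28 arrays only 4 were higher and 0 lower, 5.19% beside 3.24% of all genes higher. Their median was 0.31 there, beside 0.09 over all genes. By complex, 11 of 36 genes of complex I, 2 of 13 of complexes II and III, 5 of 13 of complex IV and 6 of 16 of the ATP synthase were higher on 26 arrays, with NDUFA4 counted in complexes I and IV.

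NDUFA1, a small subunit of complex I, had CO signals of 13.12 to 14.75 (median 13.63) and exposed signals of 13.27 to 14.74 (median 14.32), and 20 of 21 exposed arrays lay above the CO mean. It was higher at 0.54 ± 0.19 (1.46-fold) on 28 arrays and 0.62 ± 0.15 on 26. COX7C, a subunit of complex IV, ran from 13.52 to 14.88 (median 13.98) in CO and from 13.43 to 14.85 (median 14.54) with steroid, again with 20 of 21 above the CO mean, and was higher at 0.44 ± 0.19 and 0.51 ± 0.14. ATP5PD, a stalk subunit of the ATP synthase, had CO signals of 11.51 to 13.57 (median 13.38) and exposed signals of 11.79 to 14.01 (median 13.70), and 16 of 21 exposed arrays lay above the highest CO array. The ATP5PD difference was 0.56 ± 0.24 on 28 arrays and 0.64 ± 0.19 on 26. UQCRB, a subunit of complex III, ran from 10.97 to 12.98 (median 11.51) in CO and from 11.10 to 13.62 (median 12.41) with steroid, and was higher at 0.68 ± 0.28 and 0.73 ± 0.26. By treatment on all 28 arrays, NDUFA1 stood above CO by 0.64 in E2T, 0.43 in P4T and 0.56 in E2P4T, and ATP5PD by 0.65, 0.42 and 0.62. The P4T means include number 4, at 13.27 for NDUFA1 (next 14.13) and 11.79 for ATP5PD (next 13.28). The E2T mean of ATP5PD includes number 3, at 12.65 (next 13.6). These values therefore do not rank the treatments.

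Other complex I subunits were higher on 26 arrays, among them NDUFB6 (0.67 ± 0.20), NDUFB3 (0.42 ± 0.12) and NDUFC1 (0.49 ± 0.15). NDUFA10 of complex I was lower (-0.28 ± 0.13), as was COX8B of complex IV (-0.34 ± 0.13). NDUFB1 was higher at its brighter probe set (0.50 ± 0.18) and lower at its dimmer one (-0.90), so its direction is uncertain. The mitochondrial ribosome translates the subunits encoded in mitochondrial DNA. On 28 arrays 3 of its 67 genes were higher and 0 lower, beside 2.29% and 3.57% of all genes. On 26 arrays 9 were higher and 1 lower, beside 6.7% and 10.6%. The medians of the mitochondrial ribosome were 0.08 and 0.13. Its leading member MRPL52 ran from 9.62 to 10.97 (median 10.16) in CO and from 9.92 to 10.92 (median 10.73) with steroid, and was higher at 0.54 ± 0.16. MRPL49 (0.39 ± 0.12) had 18 of 21 exposed arrays above its highest CO array. The cytosolic ribosome, which makes all other proteins, had 1 of 64 genes higher on 28 arrays and 4 on 26. These counts lay near the shares of all genes, 2.29% and 6.7%. After quantile normalization 13 were higher and 1 lower on 26 arrays, where 7.8% of all genes were higher. The mitochondrial ribosome had 6 higher and 1 lower there.

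Apart from E2P4T number 5, the highest control RNA signals stood beside the lowest means of the oxidative phosphorylation genes. CO number 3 had a control RNA signal of 16.26 and a mean of 11.88 over the 77 genes, E2T number 3 had 15.42 and 11.97, and P4T number 4 had 17.31 and 11.26. The other arrays apart from E2P4T number 5 had control RNA signals of 12.95 to 14.90 and gene means of 12.18 to 12.92, so the lowest gene means stood on the arrays with most control RNA signal. With the control RNAs as a covariate, 10 genes were higher and 0 lower on 28 arrays, with a median of 0.12, but on 26 arrays 3 were higher and 3 lower, with a median of -0.03. NDUFA1 (0.54) and COX7C (0.42) stayed called with the covariate on 26 arrays, and ATP5PD (0.24), UQCRB (0.38) and NDUFB6 (0.23) did not. Leaving out CO number 3 from the 28 arrays left 2 higher genes, with a median of 0.06, and ended the calls of COX7C (0.36), ATP5PD (0.31) and UQCRB (0.55), whereas leaving out P4T number 4 gave 22 higher genes. With CO number 3 and E2T number 3 left out of the 26 arrays, 22 genes were higher and 2 lower, with a median of 0.16. The part of the hybridisation in the difference was not tested beyond these values.

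**Figure D4:**
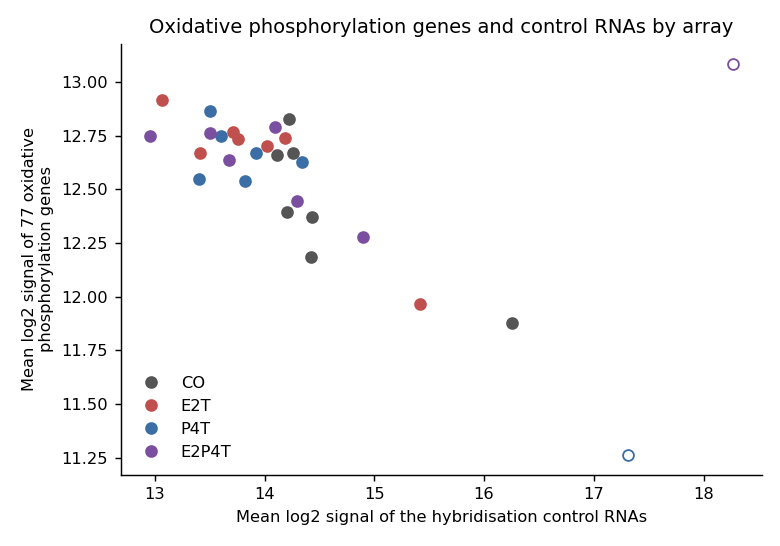
Mean log2 signal of 77 oxidative phosphorylation genes against the mean log2 signal of the hybridisation control RNAs, 1 point per array (28 arrays), coloured by group, with open circles for P4T number 4 and E2P4T number 5. CO number 3, E2T number 3 and P4T number 4 combine high control RNA signals (16.26, 15.42 and 17.31) with low gene means (11.88, 11.97 and 11.26), and E2P4T number 5 lies apart at 18.27 and 13.09.

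The 10 higher genes of smallest p on 28 arrays, among genes of at least median signal, were SH3BGRL2, MRPL52, CLDN12, MRPL49, MFF, PALS1, SLC5A1, RAP1A, TDP2 and SMAD4. SH3BGRL2, of a family of small glutaredoxin-like proteins, had CO signals of 9.83 to 11.25 (median 9.93) and exposed signals of 10.43 to 11.51 (median 10.96). All 21 exposed arrays lay above its CO mean, though the highest CO array overlapped them. SH3BGRL2 was higher at 0.65 ± 0.17 (1.57-fold; adjusted p = 0.80) on 28 arrays and 0.67 ± 0.16 (adjusted p = 0.17) on 26. CLDN12, a claudin of cell junctions, ran from 8.83 to 9.74 (median 9.38) in CO and from 9.22 to 10.46 (median 9.91) with steroid, and 13 exposed arrays exceeded the highest CO array (0.58 ± 0.18). MFF, which recruits the fission machinery to mitochondria, was higher at 0.47 ± 0.15, and SLC5A1, a sodium-coupled glucose transporter, at 0.69 ± 0.23. The small GTPase RAP1A (0.59 ± 0.20) and SMAD4 (0.48 ± 0.16), the shared transducer of transforming growth factor beta and bone morphogenetic protein signals, act in signalling. TDP2, which removes trapped topoisomerase from DNA, was higher at 0.57 ± 0.19, and PALS1, which organises cell polarity, at 0.44 ± 0.14. A dimmer probe set of PALS1 had -0.38.

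On 26 arrays the same rule gave UBQLN1, OLA1, SH3BGRL2, NDUFA1, IHQ, ALG14, DEGS1, PRUNE2, CSNK1G3 and CLDN12. UBQLN1, a shuttle for ubiquitinated proteins, ran from 12.35 to 13.16 (median 12.61) in CO and from 12.70 to 13.58 (median 13.33) on the 19 exposed arrays, and was higher at 0.55 ± 0.13 (adjusted p = 0.15). With P4T number 4 and E2P4T number 5 included it stood at 0.42 ± 0.20, and 14 of 21 exposed arrays lay above the highest CO array. OLA1, a translation-related ATPase, was higher at 0.50 ± 0.12 and had 16 of 21 exposed arrays above the highest CO array. DEGS1, the desaturase that makes ceramide, was higher at 0.62 ± 0.16, as was PRUNE2 at 0.74 ± 0.20. On 28 arrays DEGS1 (0.40 ± 0.29) and PRUNE2 (0.50 ± 0.34) were not called. ALG14, of N-glycan assembly, was higher at 0.56 ± 0.15.

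The corresponding lower genes on 28 arrays were VPS26B, TRIM47, TXNDC11, ALDH16A1, FLOT2, TRAF7, UBA7, ALG12, EXOC7 and ACCS. VPS26B, a subunit of the retromer that returns cargo from endosomes, ran from 9.77 to 10.58 (median 10.32) in CO and from 9.10 to 10.29 (median 9.69) with steroid, and 16 of 21 exposed arrays lay below the lowest CO array. It was lower at -0.54 ± 0.16 (1.46-fold; adjusted p = 0.80) on 28 arrays and -0.52 ± 0.15 (adjusted p = 0.18) on 26. TRIM47, a ubiquitin ligase, had CO signals of 9.71 to 10.71 (median 10.25) and exposed signals of 9.04 to 10.36 (median 9.53), with 13 exposed arrays below the lowest CO array (-0.60 ± 0.18). UBA7, which activates the ubiquitin-like protein ISG15, ran from 10.12 to 12.22 (median 10.77) in CO and from 9.48 to 11.04 (median 10.20) with steroid (-0.65 ± 0.21). The highest UBA7 signal was that of CO number 2, without which the difference was -0.43 and still called. In ACCS no exposed array lay above the CO mean (-0.52 ± 0.18). FLOT2, a scaffold of lipid rafts, was lower at -0.60 ± 0.19, TRAF7, a ubiquitin ligase of stress kinase signalling, at -0.51 ± 0.16, ALG12, a mannosyltransferase of N-glycan assembly, at -0.66 ± 0.21, and EXOC7, a subunit of the exocyst, at -0.49 ± 0.17. Centring each of the 28 arrays on its median ended the calls of VPS26B (-0.39), TRIM47 (-0.45), TXNDC11 (-0.35), ALDH16A1 (-0.41), EXOC7 (-0.34) and ACCS (-0.38). With the mean over the probe sets of a gene, ACCS (-0.11), ALG12 (-0.41) and FLOT2 (-0.68) were not called, nor among the higher genes PALS1 (0.03) and SLC5A1 (0.46).

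The 26-array fit led with MAPK12, a stress-activated p38 kinase. Its CO signals were 9.31 to 10.65 (median 10.27), and those of the 19 exposed arrays were 8.26 to 10.34 (median 9.13). MAPK12 was lower at -1.04 ± 0.21 (2.06-fold; adjusted p = 0.15), against -0.84 ± 0.30 with P4T number 4, whose signal was 11.50, and E2P4T number 5 included. AGPAT1, an acyltransferase of phosphatidic acid synthesis, had CO signals of 9.68 to 10.57 (median 10.22) and signals of 8.36 to 9.87 (median 9.42) on the 19 exposed arrays, and was lower at -0.76 ± 0.17. ALG12 (-0.74) and ITIH3 were in this list as well. The other lower genes of the rule were YJU2B, FAM118A, SUGP1, PIH1D1, SAG and TARP, with differences of -0.83 to -0.49.

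**Figure D5:**
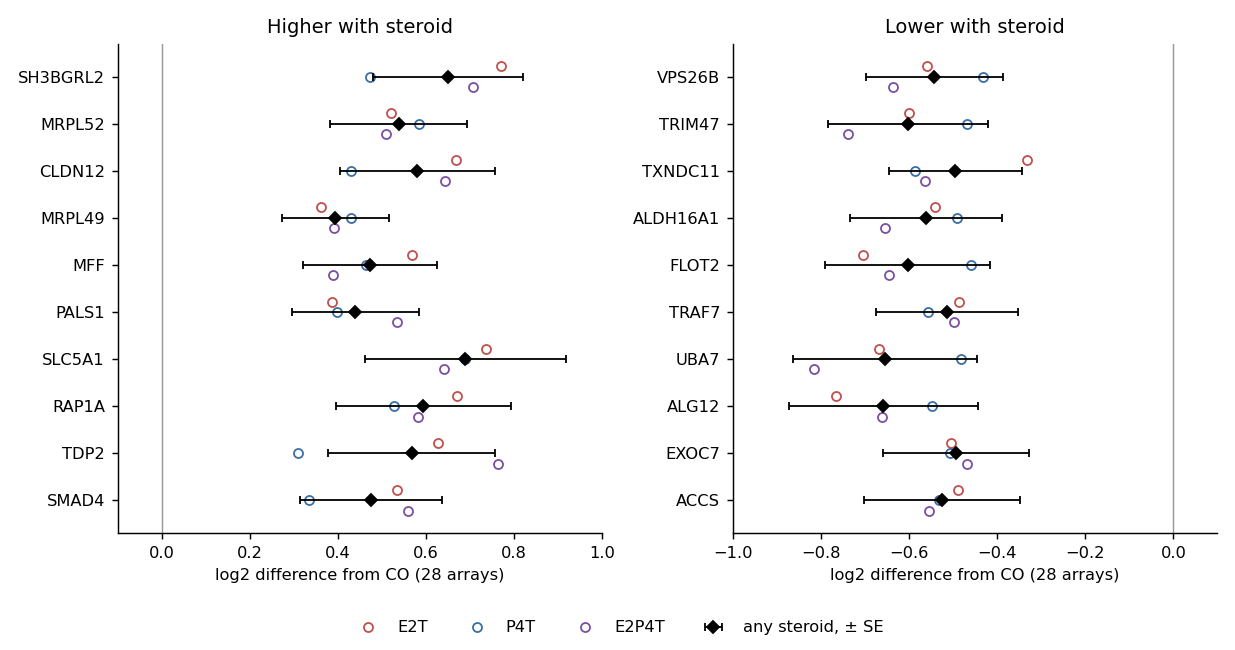
Log2 difference from CO of the 10 higher and 10 lower genes chosen by smallest p on 28 arrays, as a black diamond with its SE for any steroid and as open circles for E2T, P4T and E2P4T (7 arrays each, against the same 7 CO arrays). SH3BGRL2 leads the higher genes at 0.65 ± 0.17 and VPS26B the lower genes at -0.54 ± 0.16.

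The study tabulates genes as higher or lower with its steroid treatments. These lists, whose members need not have passed its test in every treatment, were chosen largely on these same samples, so they are not independent evidence of direction. Of 19 listed as higher, 7 were higher on 28 arrays and 15 on 26 arrays, with medians of 0.51 and 0.64, and of 16 listed as lower, 8 and 10 were lower, with medians of -0.77 and -0.85. RHNO1, which takes part in the checkpoint response to DNA damage, ran from 8.10 to 9.37 (median 8.50) in CO and from 8.65 to 10.27 (median 9.43) with steroid, and was higher at 0.78 ± 0.19 (1.71-fold). TPRKB, of the transfer RNA-modifying KEOPS complex, had CO signals of 7.59 to 8.96 (median 8.48) and exposed signals of 8.35 to 9.80 (median 9.20), and 17 of 21 exposed arrays lay above the highest CO array (0.77 ± 0.19). PPIA, the prolyl isomerase cyclophilin A, was higher at 0.64 ± 0.22, and on 26 arrays at 0.69 ± 0.20, which was not called with the control RNAs as a covariate (0.35). ADRB3, the beta-3 adrenergic receptor, ran from 7.67 to 9.04 (median 8.46) in CO and from 4.91 to 9.31 (median 7.13) with steroid, and 17 of 21 exposed arrays lay below the lowest CO array. It was lower at -1.51 ± 0.43 on 28 arrays and -1.66 ± 0.39 (3.17-fold) on 26 arrays, and its highest exposed signal was that of E2P4T number 5. CORO2A, an actin-binding coronin, was lower at -1.28 ± 0.43 at its brightest probe set, and had -0.39 and 0.04 at the others.

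Receptors for the steroids themselves gave 1 call. Of 6 measured receptors and membrane binders, none was higher or lower on 28 arrays, and PGR was lower on 26 arrays. After quantile normalization 1 was higher on 28 arrays, PAQR6 (0.70), and on 26 arrays 1 was higher, NR3C1 (0.32), and 1 lower. ESR1, estrogen receptor alpha, had weak and scattered signals, 3.09 to 6.06 (median 5.29) in CO and 2.14 to 8.59 (median 4.52) with steroid. Its difference was 0.02 ± 0.69, and a change must lie well above this SE to be called, so smaller changes were not detectable. ESR2, estrogen receptor beta, had -0.61 ± 0.68. PGR, the nuclear progesterone receptor, ran from 6.04 to 7.82 (median 7.52) in CO and from 4.27 to 8.99 (median 6.18) with steroid, with -0.92 ± 0.50 on 28 arrays and -1.20 ± 0.41 on 26 arrays. PGR on 26 arrays was still called after quantile normalization (-0.84) and was not with the control RNAs as a covariate (-0.84), and no detection calls were used here to say whether such weak transcripts were present. NR3C1, the glucocorticoid receptor, ran from 9.63 to 10.52 (median 10.30) in CO and from 9.91 to 10.93 (median 10.44) with steroid (0.30 ± 0.16). PGRMC1, a membrane-associated progesterone binder, had 0.18 ± 0.35, and PAQR6, a membrane progestin receptor, had 0.53 ± 0.39. Dimmer probe sets of these genes went the other way without a call. On 28 and 26 arrays they had -0.85 and -1.20 for NR3C1, -0.40 and -0.31 for PGRMC1, and -0.13 and -0.25 for PAQR6. The directions of NR3C1, PGRMC1 and PAQR6 are therefore uncertain.

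In the growth hormone and insulin-like growth factor axis, 2 of 17 genes were lower and 0 higher on 28 arrays, and 3 were higher and 2 lower on 26 arrays, with medians of -0.15 and -0.14. Of all genes 2.29% were higher and 3.57% lower on 28 arrays, and 6.7% and 10.6% on 26. After quantile normalization IGF2 was lower as well in both sets, so that 3 were lower and 0 higher on 28 arrays and 3 lower and 3 higher on 26. STAT5B, a transcription factor that carries the growth hormone signal, ran from 8.55 to 10.49 (median 9.14) in CO and from 7.66 to 9.67 (median 8.45) with steroid, and 15 of 21 exposed arrays lay below the lowest CO array. STAT5B was lower at -0.66 ± 0.24, but without CO number 7 it had -0.44 and was not called. The growth hormone receptor GHR had 0.10 ± 0.48 at the brightest of its probe sets. Of its dimmer probe sets, 2 were lower on 28 arrays (-1.85 and -1.52) and 4 on 26 arrays (-2.07 to -1.42), so its direction is uncertain. Among ligands, IGF1 ran from 9.16 to 10.20 (median 9.66) in CO and from 8.57 to 10.83 (median 9.49) with steroid (-0.14 ± 0.22), and IGF2 had -0.43 ± 0.22. IGF2R, which clears IGF2, had 0.44 ± 0.23 on 28 arrays and was higher at 0.51 ± 0.21 on 26, but not with the control RNAs as a covariate (0.14). Binding proteins went different ways. IGFBP6 ran from 9.28 to 10.75 (median 10.26) in CO and from 8.37 to 10.50 (median 9.61) with steroid, and was lower at -0.57 ± 0.22. IGFBP1, a binding protein raised by fasting, had 0.91 ± 0.53 on 28 arrays and was higher at 1.04 ± 0.51 on 26, and IGFBP3, the main carrier in plasma, had 0.15 ± 0.28 and was higher at 0.35 ± 0.15, though not with the covariate (0.15). IGFALS and SOCS2, which growth hormone is known to raise, had -0.15 ± 0.50 and 0.12 ± 0.43.

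Of 32 steroid and drug metabolising enzymes, 1 was lower and 0 higher on 28 arrays, and 3 were higher and 2 lower on 26 arrays, beside 2.29% of all genes higher and 3.57% lower on 28 arrays and 6.7% and 10.6% on 26. The counts of these enzymes lay near those shares. The gene lower on 28 arrays was SULT2B1, which sulfates hydroxysteroids and cholesterol. SULT2B1 ran from 7.08 to 9.09 (median 8.15) in CO and from 4.78 to 8.32 (median 7.39) with steroid, with 10 of 21 exposed arrays below the lowest CO array, and was lower at -0.96 ± 0.38 and -0.75 ± 0.30. It lost the call after quantile normalization (-0.85 on 28 arrays, -0.50 on 26) and without CO number 4 (-0.81) or CO number 7 (-0.82). On 26 arrays the glucuronidating enzymes UGT1A6 (0.50 ± 0.17) and UGT2B10 (0.57 ± 0.21) and the peroxisomal enzyme HSD17B4 (0.55 ± 0.23) were higher, and AKR1C4, an aldo-keto reductase of steroids, was lower (-0.43 ± 0.18). None of these was called on 28 arrays, where E2P4T number 5 had the lowest signal of each. With the covariate UGT1A6 (0.23) and HSD17B4 (0.25) were not called, and AKR1C4 was not after quantile normalization (-0.06). The cytochromes P450 that oxidise estradiol, CYP1A1, CYP1A2 and CYP3A28, had differences of 0.25 ± 0.25, 0.25 ± 0.42 and 0.01 ± 0.16 on 26 arrays, and SULT1E1, which sulfates estrogens, had 0.41 ± 0.43.

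Metabolic lists held at most 2 calls each on 28 arrays, where 2.29% of all genes were higher and 3.57% lower. On 26 arrays these shares were 6.7% and 10.6%. PC, pyruvate carboxylase, which feeds both the tricarboxylic acid cycle and gluconeogenesis, had CO signals of 11.84 to 12.79 (median 12.35) and exposed signals of 11.05 to 12.90 (median 11.79), and 12 of 21 exposed arrays lay below the lowest CO array. PC was lower at -0.50 ± 0.19 on 28 arrays and -0.55 ± 0.17 on 26, and was the 1 gene of 14 in the tricarboxylic acid cycle and of 17 in gluconeogenesis and glycolysis that was called on 28 arrays. In cholesterol synthesis 2 of 17 genes were lower on 28 arrays, both of them enzymes of the mevalonate pathway. MVD ran from 11.25 to 12.48 (median 12.25) in CO and from 10.72 to 12.23 (median 11.64) with steroid (-0.39 ± 0.18), and PMVK had -0.41 ± 0.19. Without CO number 3 MVD (-0.32) was not called, nor was PMVK without CO number 4 (-0.30). In the urea cycle ASL, argininosuccinate lyase, ran from 13.26 to 14.57 (median 14.07) in CO and from 11.29 to 14.23 (median 13.67) with steroid, with the lowest signal on E2P4T number 5. It was lower at -0.54 ± 0.25 and -0.46 ± 0.16, whereas a dimmer probe set of ASL had 0.15 and 0.14. Fatty acid oxidation and ketone synthesis (17 genes), bile acid synthesis and transport (9) and lipogenesis (19) had no call on 28 arrays. On 26 arrays the lipogenic genes ACACA, acetyl-CoA carboxylase (-0.73 ± 0.27), DGAT1, of triglyceride synthesis (-0.42 ± 0.17), and LPIN1, a phosphatidic acid phosphatase (-1.35 ± 0.63), were lower, and none of the 3 was with the control RNAs as a covariate (-0.38, -0.14 and -0.88). ELOVL5, a fatty acid elongase (0.50 ± 0.19), and MTTP, which loads lipid onto nascent lipoproteins (0.46 ± 0.18), were higher, and the median of the lipogenic list was -0.04. In fatty acid oxidation HADHB (0.36 ± 0.17) and ETFA (0.53 ± 0.20) were higher on 26 arrays, and neither was with the covariate (0.15 and 0.16).

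Interferon-stimulated genes had 1 of 17 lower on 28 arrays, and 2 lower and 1 higher on 26, beside 10.6% of all genes lower and 6.7% higher there. IRF9, the DNA-binding subunit of the factor that type I interferons activate, ran from 8.79 to 10.44 (median 9.58) in CO and from 7.52 to 9.54 (median 9.01) with steroid, and none of the 21 exposed arrays reached the CO mean. IRF9 was lower at -0.68 ± 0.22 on 28 arrays and -0.61 ± 0.19 on 26, and IRF7, the regulator of interferon alpha genes, had -0.53 ± 0.27 and was lower at -0.66 ± 0.23. Among 19 immediate early genes JUNB, a component of the transcription factor AP-1, was the 1 call. Its CO arrays lay at 9.20 and above with a median of 10.29, its exposed arrays ran from 8.40 to 10.71 (median 9.65), and it was lower at -0.61 ± 0.25, but not without CO number 4 (-0.46). Of 24 proliferation genes MCM3 was lower on 28 arrays (-0.54 ± 0.23), with a dimmer probe set at 0.87. The DNA repair list had 2 of 17 genes higher on 28 arrays, RHNO1 and TDP2, and 1 lower, HUS1 (-0.35 ± 0.16), a clamp protein of the damage checkpoint. In the proteasome list 1 of 32 was lower, PSMC1 (-0.33 ± 0.13), in the unfolded protein and heat shock list 1 of 19, DNAJB11 (-0.61 ± 0.29), and in the circadian clock list 0 of 6. Beside these counts, 2.29% of all genes were higher and 3.57% lower on 28 arrays. On 26 arrays the proteasome and the unfolded protein lists each had 3 genes higher and 1 lower, with medians of 0.12 and 0.14. All genes had 6.7% higher and 10.6% lower on 26 arrays. After quantile normalization on 26 arrays the proteasome list kept 3 higher and 1 lower, and the unfolded protein list had 0 higher and 1 lower.

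Markers of other cells that a biopsy can hold were set beside these differences, because in a bulk sample fewer cells of a type and less RNA per cell cannot be told apart. On 26 arrays all 11 skeletal muscle markers, 4 of 5 adipocyte markers and 6 of 7 erythroid and blood markers had negative differences. So had 5335 of all 9155 genes. The marker medians were -0.43, -0.78 and -0.39 as deposited, and -0.20, -0.35 and -0.08 after quantile normalization. The mean of the muscle markers was 6.92 to 8.58 in CO and 6.52 to 8.43 with steroid, that of the adipocyte markers 6.56 to 8.32 and 5.69 to 7.68, and that of the blood markers 4.64 to 6.87 and 4.21 to 6.33, so that the arms overlapped in each. Leukocyte and Kupffer cell markers had 9 of 16 positive, with means of 8.48 to 9.73 in CO and 8.56 to 9.29 with steroid, and stellate cell and matrix genes had 11 of 15 positive. Of 13 endothelial markers, 3 were higher and 2 lower on 26 arrays. TIE1, an endothelial receptor kinase, had 4.64 to 7.92 (median 5.07) in CO and 4.97 to 8.32 (median 7.37) with steroid, and was higher at 1.42 ± 0.45. LYVE1, a hyaluronan receptor of liver sinusoids, was higher at 0.66 ± 0.21 on 26 arrays, and KDR, the main receptor of vascular endothelial growth factor was lower at -1.64 ± 0.70. Hepatocyte markers had 1 of 21 higher and 4 lower on 26 arrays, with a median of -0.16. The shares over all genes there were 6.7% higher and 10.6% lower. After quantile normalization 0 of the 21 hepatocyte markers were higher and 0 lower on 26 arrays, with a median of 0.06. The part of cell composition in the acute phase and mitochondrial differences was not tested.

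Pooling treats the 3 treatments as one, so the differences among them were tested as well. A moderated F test in limma among E2T, P4T and E2P4T gave 426 probe sets at an unadjusted p under 0.05 (1.77%) and none at an adjusted p under 0.05. That share is below the one that chance alone gives at this unadjusted threshold. Among the genes named by rule or list, HSD17B1, which reduces estrone to estradiol, SLC51A, a subunit of a bile acid exporter, OAT, ornithine aminotransferase, and JUNB were at an unadjusted p under 0.05 (adjusted p = 1 for each). HSD17B1 signals were 6.33 to 8.16 in CO, 6.13 to 7.94 in E2T, 6.86 to 8.19 in P4T and 4.76 to 6.61 in E2P4T. The pooled HSD17B1 difference of -0.43 ± 0.40 averaged -0.16 in E2T, 0.25 in P4T and -1.38 in E2P4T. HSD17B1 was picked for its small p, so these values describe it and do not establish that the groups differ. SLC51A stood at -0.40 in E2T, -2.24 in P4T and -0.14 in E2P4T against CO, and OAT at 0.03, 0.85 and 1.13, with a pooled difference of 0.67 ± 0.36. JUNB stood at -0.71, -0.19 and -0.92, and without P4T number 4 and E2P4T number 5 its F test was no longer under 0.05. HP, LBP, ITIH3, NDUFA1, SH3BGRL2 and VPS26B were not called by this test, which does not show that the treatments acted alike.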

How the data were processed

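The authors scanned the arrays with GCOS and derived a signal intensity per probe set with MAS5, and deposited these intensities on a linear scale for 28 arrays scaled by that software; detection calls were not used here. Samples were grouped by title. Signals were set on a log2 scale with no further scaling, and the 112 control probe sets were left out. Gene symbols came from the platform annotation: 13292 probe sets had exactly 1 symbol (13263 matched a RefSeq gene ID and symbol), 86 had several and were not named. R 4.3.3 and limma 3.58.1 (lmFit, eBayes with a trend) fitted 1 coefficient per arm, with Benjamini-Hochberg adjustment over 24016 probe sets, and the script was tested on simulated data. Named genes were, for 28 and 26 arrays, the 10 higher and 10 lower of smallest p among symbols of at least 1.25-fold and median signal (log2 9.37), up to 4 members of each pathway or study list by smallest p on 28 arrays (37 lists in all with the cell markers), members of the receptor, growth hormone and enzyme lists, and probe sets whose arms did not overlap, of which there were none. APOB, CDH16, CUBN, C4BPA, ITIH4, FGG, FGB, NDUFA4, NDUFC1, NDUFA10, ELOVL5, MTTP, HADHB, ETFA, TIE1, LYVE1 and KDR fall outside this rule and were chosen after their values were seen. The members, lists and settings were chosen with earlier results of these data known. Cow and period effects, which the study modelled, could not be fitted from the labels. Alternatives were the scalings, filters, variances, blocks, covariate and left-out arrays given in the closing section. No reference sequence was used.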

Additional observations from a re-analysis of the deposited data

Results flagged for a closer look

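Within each group of 7 arrays, the gap of the highest or lowest array to its neighbour was compared with the range of the group at the limit of Dixon's test for p under 0.05, for 5 array measures and 34 genes, which is 156 tests. Chance alone marks about 1 group in 20. E2P4T number 5 was marked for its control RNAs (18.27, next 14.9), array median (9.001, next 7.929), hepatocyte markers (10.08, next 14.92), kidney markers (10.79, next 6.724), acute phase mean (8.972, next 13.98), LBP (9.309), SAA3 (5.89), ITIH3 (11.16), ASL (11.29) and PGR (8.807). P4T number 4 was marked for its control RNAs (17.31, next 14.34), array median (8.779), kidney markers (7.566), ITIH3 (16.71), NDUFA1 (13.27), COX7C (13.43), ATP5PD (11.79), MAPK12 (11.5) and IGF1 (10.59). E2T number 3 was marked for its array median (8.223), ITIH3 (15.96), ATP5PD (12.65) and MAPK12 (10.34), and CO number 3 for its control RNAs (16.26, next 14.43). CO number 7 had kidney markers of 8 against at most 6.499 on the other CO arrays. HP on E2P4T number 2 lay at 16.61 against at most 10.4 in its group, and the acute phase mean of P4T number 2 was 15.47 against at most 14.64. RHNO1 on E2T number 5 was 10.14, and PC on E2T number 1 was 12.56. All values are log2 signals.

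Among the 3 steroid groups, the moderated F test of limma had an unadjusted p of 0.00098 for HSD17B1, 0.012 for SLC51A, 0.027 for OAT and 0.043 for JUNB, and an adjusted p near 1 for each.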

How the results depend on the processing

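At an unadjusted p under 0.05 on all 28 arrays, 487 probe sets were higher and 993 lower. These counts became 1119 and 2688 without P4T number 4 and E2P4T number 5, 800 and 604 after quantile normalization, 810 and 621 after median centring, 1359 and 2171 with array weights, and 219 and 335 with 1 probe set per symbol tested. The control RNAs as a covariate gave 743 higher, and testing only the probe sets above the median signal 339 lower. Leaving out single arrays gave 367 (without CO number 5) to 862 (without CO number 6) higher, and 583 (without CO number 3) to 1670 (without E2P4T number 5) lower. The 426 probe sets that differed among the steroid groups became 86 above the median signal, 918 with array weights and 112 with 1 probe set per symbol, and 364 to 559 without single arrays. Other settings stayed within 1.5 times these counts, and no setting gave an adjusted p under 0.05 on 28 arrays. Overlap of the arms was counted only on the deposited values of 28 and 26 arrays. The 26-array alternatives were chosen after seeing the data. There, quantile normalization gave 1694 higher and 1271 lower, median centring 3721 and 900, and the covariate 1244 lower, and leaving out single arrays gave 725 (CO number 3) to 1734 (CO number 6) higher and 1742 (CO number 3) to 3444 (E2T number 3) lower. At an adjusted p under 0.05, log2 of the signal plus 50 gave 17 probe sets, all lower, 14 of them below the median signal and with MAPK12 and ADRB3 among them, and leaving out single arrays gave 0 to 16 (16 without CO number 1 and 12 without CO number 6). No called difference of a named gene changed sign under these alternatives on 28 arrays except MCM3 (0.16) and NDUFB1 (-0.15) with the mean over a gene's probe sets, and median centring ended, beside those named in the report, calls of the lower genes LBP, SAA3, SAA4, ITIH3, IRF9, JUNB, PC, ASL, MVD, PMVK, IGFBP6, SULT2B1, PSMC1, HUS1, MCM3, DNAJB11, FAM118A, SAG and PIH1D1 and of the higher genes ALG14, ATP5F1E, ATP5MC3, ATP5PD, ATP5PF, COX7A2L, COX7C, NDUFB3, CSNK1G3, IHQ, OLA1, RPL35A and UBQLN1. Samples of the same number did not meet the limit for pairing, a correlation of deviations over 0.1 in every pair: 11 of 42 pairs did, with a mean of 0.034 against -0.003 for different numbers. As a hint from the data, 10 of 28 arrays correlated best with their own number. The replicate block gave 605 higher and 1089 lower on 28 arrays and 1435 and 3046 on 26. The causes were not tested. Weak signals, with no detection calls used, limit the precision of low genes.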

Other observations

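Of 13 plasma and secreted proteins that estrogen is known to alter in liver, none was called on 28 arrays. All 13 differences were negative there, with a median of -0.34, beside 5248 of all 9155 genes. That set holds E2P4T number 5, on which hepatocyte markers were low. On 26 arrays 8 differences were negative and 5 positive, with a median of -0.04, and 0.09 after quantile normalization. As deposited, 2 of the 13 were lower on 26 arrays, beside 10.6% of all genes. These were F10, coagulation factor X (-0.33 ± 0.14), and TFF3, a trefoil factor (-1.17 ± 0.57), and TFF3 was not called after quantile normalization (-0.89). Of 12 nuclear receptors of drugs and metabolites 1 was lower on 26 arrays, PPARD (-0.58 ± 0.22), which was not called with the control RNAs as a covariate (-0.35).

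In the urea cycle and amino acid breakdown, 3 of 25 genes were higher and 2 lower on 26 arrays. The shares over all genes there were 6.7% higher and 10.6% lower. OTC, ornithine transcarbamylase, was higher at 0.57 ± 0.21, and so were GLDC (0.89 ± 0.31) and GCSH (0.31 ± 0.13) of the glycine cleavage system, whereas AMT of the same system was lower (-0.40 ± 0.19). GLDC is in the study's higher list. The study tabulates OTC too as higher with each of its treatments. In gluconeogenesis and glycolysis 3 of 17 genes were higher on 26 arrays, PCK1, the cytosolic enzyme that commits oxaloacetate to glucose (0.34 ± 0.16), LDHA (0.44 ± 0.16) and PGK1 (0.38 ± 0.16), of which LDHA and PGK1 were not called with the covariate (0.29 and 0.19). Among proliferation genes PLK1 (-0.78 ± 0.30) and AURKA (-0.61 ± 0.23), both mitotic kinases, and the replication helicase genes MCM3 and MCM4 were lower on 26 arrays and MCM6 was higher (0.30 ± 0.15). With the covariate PLK1 (-0.36), AURKA (-0.49) and MCM3 (-0.33) were not called. Dimmer probe sets on 26 arrays had -1.08 for MCM6, 0.86 for MCM3 and -0.01 for AURKA. The directions of MCM6 and MCM3 are therefore uncertain. Bile duct cell markers had no call in either set. These genes were described after their values were seen, except those named by rule.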
